A study of Mus musculus with 19 samples.

Results

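The MHC class II and antigen processing locus of the mouse was described here as a window of 260 kb on chromosome 17, from 34.3 to 34.56 Mb in build mm39. Its members are the accessible regions, or peaks, of a consensus ATAC-seq list that overlap the window by at least 1 base: 79 of 140383 peaks. The window was chosen by the density of peaks in this same list, since a run of closely packed peaks lies in it, so its peak density is a description and was not tested. The same holds for width, fold and −log10 q, which come from the same list. The window carries 6 genes of interest. Approximate mm39 intervals came with the choice of the window: Brd2 from 34.331 to 34.3416 Mb, the block of Psmb9, Tap1 and Psmb8 from 34.4 to 34.42 Mb, and H2-Ab1 from 34.4822 to 34.4884 Mb. No interval was given for H2-Aa, which follows H2-Ab1 in gene order.

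ATAC-seq, in which Tn5 transposase inserts adapters into open DNA, was collected from bone marrow-derived macrophages of Csf1r-Cre mice, called wild type, and of Smarca5 lox/lox Csf1r-Cre mice, called Smarca5-/-. Both were differentiated with daily 4-hydroxytamoxifen, and Cre was driven by the promoter of Csf1r, a macrophage receptor gene. In each genotype there were untreated cells, cells stimulated for 1 or 2 h with the bacterial product LPS (10 ng/ml), and cells stimulated for 1 or 2 h with the cytokine interferon beta (100 U/ml). These are 10 groups, 9 of them with 2 samples; 1 h of interferon beta in wild-type cells has 1 sample. The list gives 1 set of values per peak for the whole series, names none of the 19 samples and has no replicates, so effects of the Smarca5 deletion, LPS or interferon beta on this locus could not be measured. The depth behind each value is unknown. Macrophage markers were not checked, because no gene annotation of mm39 was used here.

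The locus encodes steps of antigen presentation. The class II molecules, such as the I-A heterodimer made by H2-Aa (alpha chain) and H2-Ab1 (beta chain), display peptides from endocytosed proteins to CD4+ T cells. Psmb8 and Psmb9 are catalytic subunits of the immunoproteasome, which cuts proteins into peptides, and Tap1 is a subunit of the transporter that carries such peptides into the endoplasmic reticulum for MHC class I. Brd2, which lies among these genes, encodes a BET family protein that binds acetylated histones. In macrophages, class II genes are known to depend on the coactivator CIITA, which is held at promoters by factors bound to short elements named the X and Y boxes, and the immunoproteasome and Tap1 genes are known interferon targets.

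In RefSeq's gene order (GRCm38.p6, used for order only), the window's genes run H2-Oa, Brd2, H2-DMa, H2-DMb2, H2-DMb1, Psmb9, Tap1, Psmb8, Tap2, H2-Ob, the long noncoding RNA gene Gm20506, H2-Ab1, H2-Aa, H2-Eb1 and H2-Eb2. H2-Oa and H2-Eb2 are named as the neighbours at either end, and whether they fall inside the window in mm39 was not determined. H2-DMa, H2-DMb1 and H2-DMb2 encode H2-DM, which loads peptide onto class II molecules, and H2-Oa and H2-Ob encode H2-DO, which restrains H2-DM. Promoter sequences were matched by symbol for 5 of the 6 members, and for 7 of 8 other antigen presentation genes listed for the locus. H2-Ab1 and Tap2 were not matched. The sequences are RefSeq's for build GRCm38.p6, and no peak was placed on them, since the peaks are in mm39.

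Psmb9 and Tap1 point away from each other, and the stretch between their starts is only 225 bases long. It is shown because the widest peak of the window lies in their block. It is written on the plus strand (chr17:34187331-34187555, GRCm38.p6), from the Psmb9 side to the Tap1 side, with capitals for matches to the Y box core GATTGG and the GC box GGGCGG, each on either strand.
Psmb9-Tap1: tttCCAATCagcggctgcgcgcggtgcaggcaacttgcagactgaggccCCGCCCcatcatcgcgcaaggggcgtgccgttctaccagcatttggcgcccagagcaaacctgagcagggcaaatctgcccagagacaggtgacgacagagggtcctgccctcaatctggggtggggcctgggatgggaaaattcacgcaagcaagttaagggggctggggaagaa
Its GC content was 61.3%, against a median of 52.4% in the 250 bases before the start over all 32851 RefSeq promoter entries. In those 250 bases, GGGCGG was present in 32.7% of all entries and GATTGG in 14.6%. Searches for a short form of the interferon response element, GAAANNGAA, and for the GAS element TTCNNNGAA, which can overlap each other, found no match on either strand of this stretch. Over all entries, the first was present in 7.13% and the second in 7.02%. Psmb8 had a GAS match, TTCCCAGAA, that began 97 bases before its start, and Brd2 had one, TTCGGGGAA, 145 bases before 1 of its 3 listed starts. Among the other genes of the locus with an entry, H2-DMb2 had one, TTCCTGGAA, 218 bases before its start.

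The core GATTGG, which also lies between Psmb9 and Tap1, was present before at least 1 start of all 8 class II or class II-like genes with an entry (H2-Aa, H2-DMa, H2-DMb1, H2-DMb2, H2-Oa, H2-Ob, H2-Eb1 and H2-Eb2). Counted per entry and not per gene, the core was present in 14.6% of all entries. H2-DMa had it 199 bases before its start at 34125518 and not before its start at 34122832. The pattern AACNNATGA, written down for part of the X box after these promoters were read, was found in 4 of the 8 (H2-DMb1, H2-DMb2, H2-Ob and H2-Eb1), before 1 start of Brd2 and in 2.49% of all entries. In the 4 class II genes, 18 to 21 bases lay between it and the GATTGG core, so the elements did not overlap. H2-Aa had the core, starting 49 bases before its start, and not this pattern. The following lines give 150 bases up to the base before the start of H2-Aa (minus strand, chr17:34287824-34287973) and, for comparison, of H2-DMb1 (chr17:34153041-34153190), H2-Ob (chr17:34238755-34238904) and H2-Eb1 (chr17:34305717-34305866), the last 3 on the plus strand, all in GRCm38.p6. Capitals mark both elements on either strand.
H2-Aa: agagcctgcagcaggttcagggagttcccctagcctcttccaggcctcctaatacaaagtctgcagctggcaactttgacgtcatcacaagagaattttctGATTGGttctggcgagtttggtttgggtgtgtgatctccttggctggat
H2-DMb1: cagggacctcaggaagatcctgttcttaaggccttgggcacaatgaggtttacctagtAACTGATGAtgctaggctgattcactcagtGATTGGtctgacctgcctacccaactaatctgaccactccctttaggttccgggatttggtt
H2-Ob: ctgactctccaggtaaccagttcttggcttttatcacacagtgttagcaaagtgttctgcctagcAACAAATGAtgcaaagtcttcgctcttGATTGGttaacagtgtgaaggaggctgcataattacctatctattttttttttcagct
H2-Eb1: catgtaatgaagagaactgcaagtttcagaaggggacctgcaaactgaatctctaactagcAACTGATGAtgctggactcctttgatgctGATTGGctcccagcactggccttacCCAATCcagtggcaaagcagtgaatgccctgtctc
A match is a description of letters and does not show that a factor binds there.

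Peaks were dense in the window taken as a whole, though not evenly along it, and most were of modest enrichment. The 79 peaks gave 30.4 peaks per 100 kb, against 6.56 on chromosome 17 and 5.47 on the autosomes and X. Their summed widths came to 7.62% of the window's length, with the peak across its edge counted whole. Over the 10113 consecutive stretches of 260 kb on the autosomes and X, the median held 7 peaks and the fullest 75. These stretches lie on a fixed grid, whereas the window was placed on dense peaks. The 260 kb before the window held 53 peaks and the 260 kb after it 50, so peaks were also denser than the list's average on both sides of it. Neighbouring peaks in the window lay a median of 1832 bp apart, against 5089 bp in the list.

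The deposited fold of a peak stands in the column where MACS2 writes enrichment over local background. The fold was read as such an enrichment, and whether it comes from a single call or combines several is unknown. Its median was 7.96 in the window (quartiles 5.28 and 13.05), against 9.85 in the list (quartiles 6.71 and 15.7). A fold below 5 was found for 19 of the 79 peaks (24.1%), against 10.4% of the list, and a fold of at least 20 for 6 (7.59%), against 15.0%. The deposited −log10 q, which for a single call measures how unlikely a peak is under the background model, was not lower. Its median was 60.7 in the window and 45.3 in the list, and whether it combines several calls is likewise unknown. A fold below the list's median together with a −log10 q at or above its median was found in 16 of the 79 peaks (20.3%), against 8.37% of the list. Widths were close to those of the list, with medians of 182 and 196 bp.

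**Figure D1:**
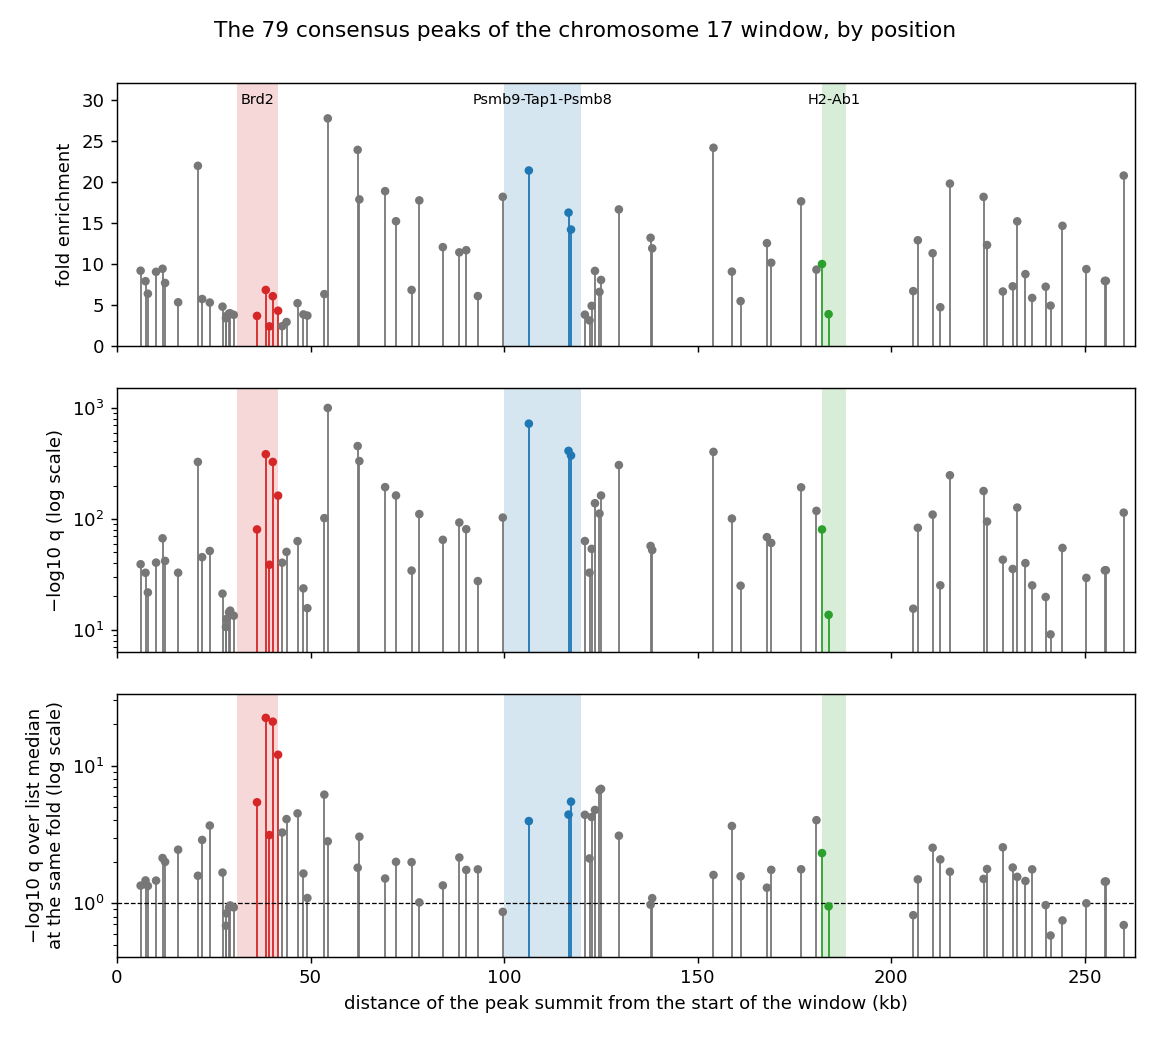
Fold, −log10 q and relative −log10 q (the −log10 q divided by the list's median at the same fold) of the 79 peaks against the distance of their summit from the start of the window in kb. Shaded bands and coloured points mark the Brd2, Psmb9-Tap1-Psmb8 and H2-Ab1 intervals, and the dashed line is a ratio of 1. The Brd2 peaks are low in fold, with a highest value of 6.86, and reach a relative −log10 q of 22.3.

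The 7 parts of the window, the 3 gene intervals and the 4 stretches around them, differed in how peaks were packed. Peak density was highest before Brd2, at 51.6 peaks per 100 kb (16 peaks in 31.0 kb), and next in the Brd2 interval, at 47.2 (5 peaks in 10.6 kb). It was lowest in the Psmb9-Tap1-Psmb8 block, at 15.0 (3 peaks in 20.0 kb). The other 4 parts held 25.7 to 32.3 peaks per 100 kb. This order depended on the processing. With gene intervals widened by 5000 bp, the densities were 68.0 at Brd2, 38.5 before it and 33.3 in the block, which was no longer the lowest. With only the peaks at or above the list's median −log10 q, the stretch before Brd2 (9.68) and the part after H2-Ab1 (11.2) lay below the block (15.0). By the summed width of peaks as a share of length, the order changed. Peaks were counted whole, also where they crossed an edge, as 242 bases at Brd2 did. The Brd2 interval had 18.8%, the highest of the 7 parts, whereas the stretch before Brd2 had 9.27% and the Psmb9-Tap1-Psmb8 block 9.15%. The stretch after H2-Ab1 had 5.15%, the lowest. The 3 peaks of the proteasome and transporter block thus covered nearly the same share of bases as the 16 peaks before Brd2.

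**Figure D2:**
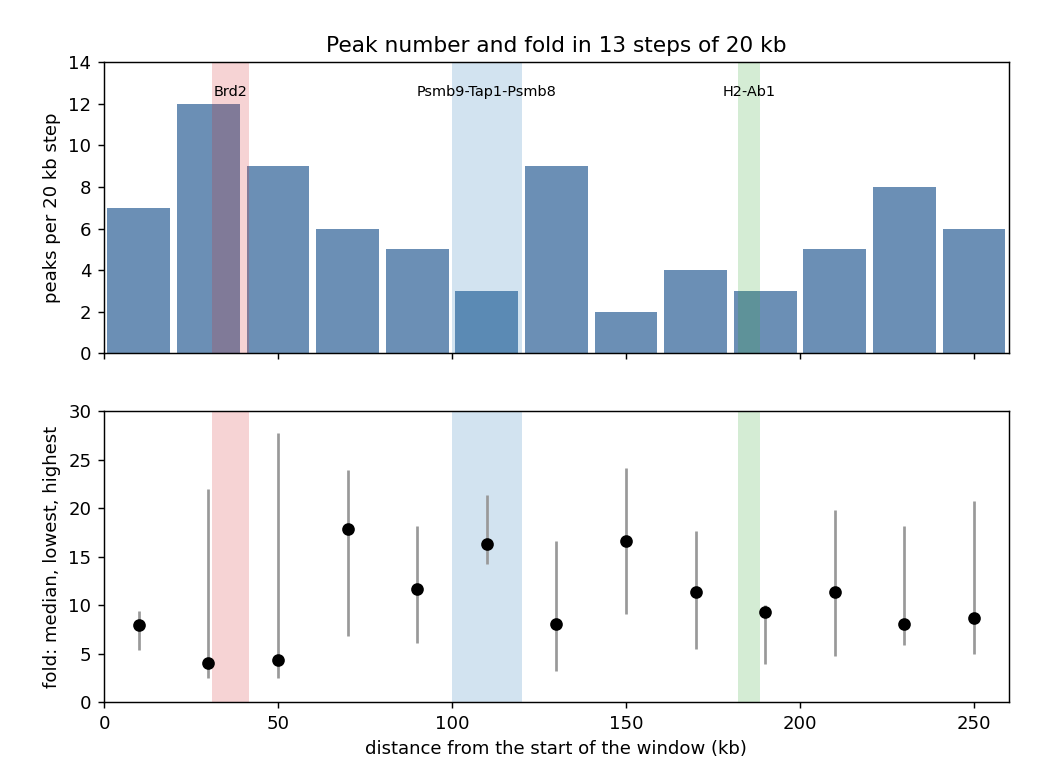
Peaks per step (upper panel) and the median fold with the lowest and highest value as a bar (lower panel) in 13 steps of 20 kb, by distance from the start of the window in kb, with the gene intervals shaded. The step that starts 20 kb into the window held 12 peaks with a median fold of 4.00, and the step over the Psmb9-Tap1-Psmb8 block held 3 peaks with a median fold of 16.3.

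Brd2, the chromatin reader gene, carried 3 wide peaks and 2 narrow ones. The wide peaks, at 34338072 to 34338663, 34339940 to 34340469 and 34341264 to 34341842, were 592, 530 and 579 bp wide, and only 7.35% of the list reached 500 bp. Their folds were low, at 6.86, 6.10 and 4.33, whereas their −log10 q values were 384, 327 and 162. The narrow peaks, at 34336140 to 34336303 and 34339344 to 34339474, had folds of 3.70 and 2.43 and −log10 q values of 80.5 and 38.6. All 5 folds lay below the list's median of 9.85, and 4 of the 5 −log10 q values lay above its median of 45.3.

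Each of the 5 Brd2 peaks ranked higher in the list by −log10 q than by fold. The 3 wide peaks stood at percentiles 26.3, 19.4 and 5.97 of fold and 92.5, 90.8 and 81.2 of −log10 q. The narrow peaks stood at 2.97 and 0.235 of fold and 66.7 and 44.6 of −log10 q. To compare the measures, each −log10 q was divided by the median −log10 q of the hundredth part of the list with the most similar fold. This relative −log10 q had a median of 12.0 over the 5 Brd2 peaks and ran from 3.13 to 22.3. Over the 79 peaks its median was 1.76. A relative value of at least 4 was found in 4 of the 5 Brd2 peaks, in 15 of the 79 (19.0%) and in 6.74% of the list.

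**Figure D3:**
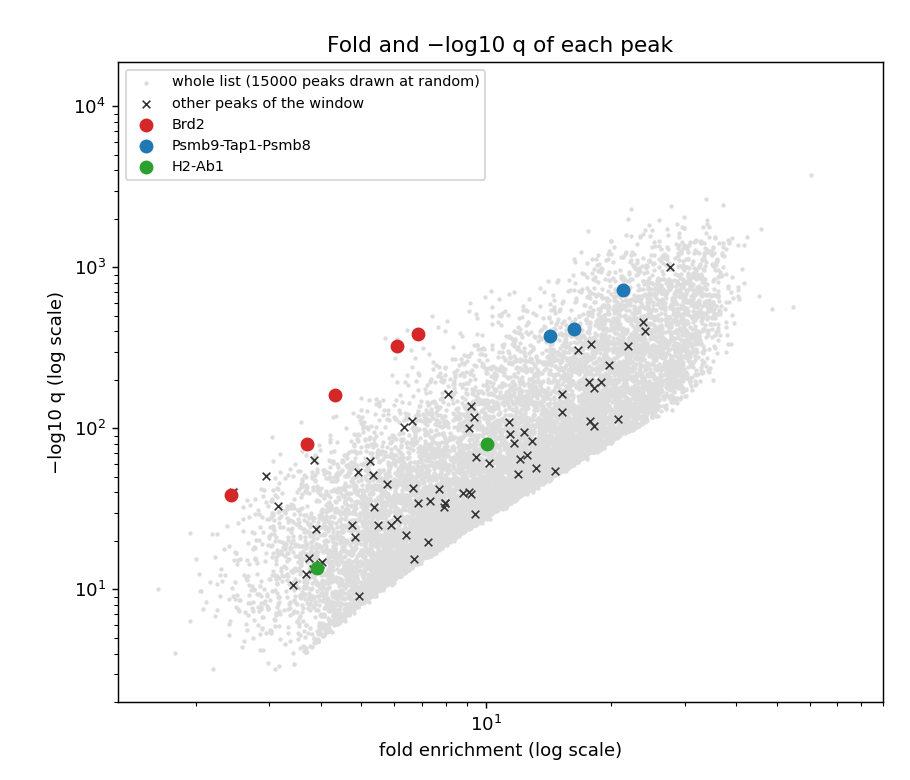
Fold against −log10 q of each peak, both on log scales: 15000 peaks of the list drawn at random (grey), the window's peaks outside the gene intervals (crosses) and those of Brd2 (red), Psmb9-Tap1-Psmb8 (blue) and H2-Ab1 (green). The 5 Brd2 peaks lie along the upper left edge of the grey cloud, while the 3 Psmb9-Tap1-Psmb8 peaks combine a fold of 14.2 to 21.4 with a −log10 q of 374 to 724.

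Brd2 is on the minus strand in RefSeq, so the high end of its interval is the 5′ end. The third wide peak lay across that end, with 337 of its bases inside the approximate interval and 242 beyond it. RefSeq lists 3 starts for Brd2 within 2707 bp in GRCm38.p6, and the summits of the 3 wide peaks span 3171 bp in mm39. From low to high coordinates, the starts lie 1847 and 860 bp apart and the summits 1808 and 1363 bp apart. A start of H2-DMa, on the plus strand at 34122832, lies just beyond the Brd2 start at 34122607 in that RefSeq build and points away from it. The starts were not placed on the peaks, so whether the third wide peak lies at Brd2, H2-DMa or both was not determined. The Brd2 comparisons depended on the interval: widened by 5000 bp on each side it took in 14 peaks, their median width fell to 164.5 bp and their median −log10 q to 39.5, below the rest of the window, while the median fold stayed low at 3.91.

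The low folds began before Brd2, where folds below 5 came with lower −log10 q values. From 34327200 to 34330176, 6 peaks with folds of 3.42 to 4.83 had −log10 q values of only 10.6 to 21.2, and relative values of 0.685 to 1.67. They were narrow, 22 to 191 bp, and included the narrowest peak of the window, 22 bp at 34329236 to 34329257. These 6 peaks were chosen as all those before Brd2 with a fold below 5. They and the 5 Brd2 peaks overlapped in fold and did not overlap in −log10 q. The separation depends on that cut. Earlier peaks at 34321932 to 34322082 (fold 5.76) and 34323922 to 34324086 (fold 5.32) had −log10 q values of 45.2 and 51.4. Both are above the lowest Brd2 value, 38.6, whereas the peak at 34315630 to 34315874 (fold 5.36) had 32.7. In all, 13 of the 16 peaks from 34327200 to 34349219 had a fold below 5, a stretch chosen after its values were seen.

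The stretch before Brd2 held 1 strong peak, at 34320549 to 34321008. It was 460 bp wide, with a fold of 22.0 and a −log10 q of 327, the highest of its part in all 3 measures. The other 15 peaks there had folds of 3.42 to 9.44. The median fold of the part was 5.56 (quartiles 4.00 and 8.20) and its median −log10 q 32.7, the lowest −log10 q median of the 7 parts. With only the peaks at or above the list's median −log10 q, 3 of the 16 remained and the density there fell to 9.68 peaks per 100 kb.

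Folds were mixed between Brd2 and Psmb9, where gene order places the H2-DM genes. The first 5 peaks beyond the Brd2 interval had folds of 2.45 to 5.24. The seventh, at 34354289 to 34354793, had a fold of 27.7 and a −log10 q of 1004, the highest of the window in both, and stood at percentile 95.2 of the list by fold and 98.8 by −log10 q. It was 505 bp wide. A pair of peaks followed at 34361592 to 34362334 and 34362563 to 34362661, with folds of 23.9 and 17.9 and −log10 q values of 455 and 333. The first of them, at 743 bp, was the widest of its part.

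From 34361592 to 34399937, 11 peaks had a median fold of 15.2 (6.11 to 23.9) and 0 had a fold below 5. Their relative −log10 q had a median of 1.76 and reached at most 3.05, so fold and −log10 q were closer to the list's usual relation here than at Brd2. Over the whole part of 18 peaks, the median fold was 11.6 and the median −log10 q 86.9. Which of these peaks lie at H2-DMa, H2-DMb2 or H2-DMb1 was not determined.

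**Figure D4:**
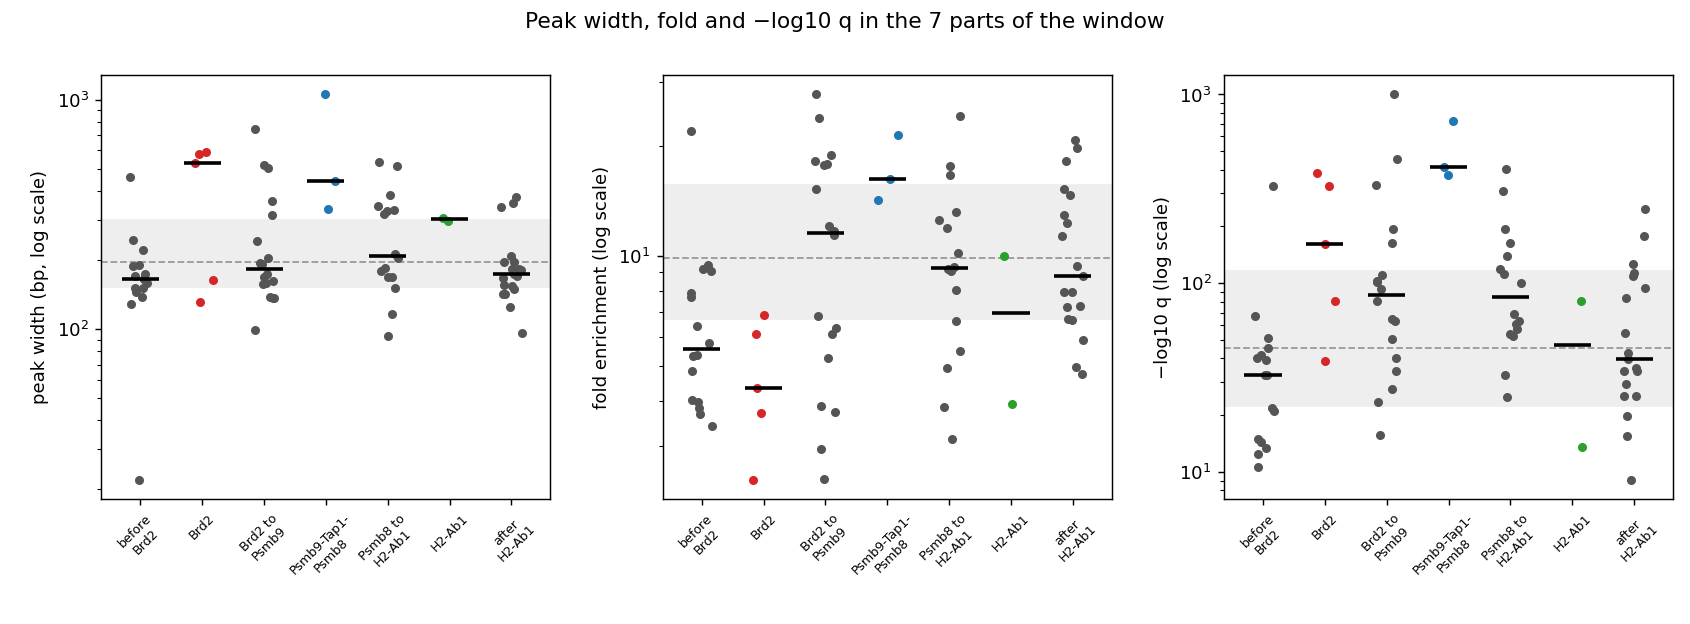
Width (bp), fold and −log10 q of the peaks in the 7 parts, all on log scales: each point is a peak, the black bar is the part's median, the dashed line is the list's median and the grey band spans the list's quartiles. Brd2 is the part with the lowest median fold, 4.33, and the widest median peak, 530 bp, and the Psmb9-Tap1-Psmb8 block has the highest medians of fold, 16.3, and −log10 q, 411.

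The block of Psmb9, Tap1 and Psmb8 held few but strong peaks. At 34405960 to 34407015 lay the widest peak of the window, 1056 bp, with a fold of 21.4 and a −log10 q of 724, the second highest of the 79. It was wider than 99.8% of the list. The other 2 peaks lay close together, at 34416375 to 34416814 (440 bp, fold 16.3, −log10 q 411) and at 34417228 to 34417562 (335 bp, fold 14.2, −log10 q 374). Between the widest peak and this pair were 9359 bases without a peak. All 3 peaks were above the list's upper quartile in width and −log10 q, and 2 of the 3 were above it in fold. Widened by 5000 bp on each side, the block took in 10 peaks, and its medians fell to a fold of 8.62 and a −log10 q of 125.

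A group of peaks with a high −log10 q for their fold began at the pair in this block and ran past its end. Its bounds, from 34416375 to 34425152, and those of the other such group were set by peaks with a relative −log10 q of at least 4, so the counts inside them are descriptions. In the group at this block, 7 of 8 peaks reached 4, up to 6.79. The 6 peaks of this group that lay beyond the block's end had folds of 3.15 to 9.17. The other group ran from 34336140 to 34353651, where 7 of 11 peaks reached 4, among them 4 of the 5 Brd2 peaks. Of the 15 peaks of the window with a relative value of at least 4, 1 lay outside both groups, at 34480464 to 34480792, the last peak before the H2-Ab1 interval. This feature was not limited to the window, since 19 of the 53 peaks in the 260 kb before it (35.8%) and 3 of the 50 in the 260 kb after it (6%) also reached 4.

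Between the block and H2-Ab1, where gene order places Tap2, the partner of Tap1, and H2-Ob, the medians over 16 peaks were 9.25 for fold and 84.7 for −log10 q. The strongest, at 34453974 to 34454299, had a fold of 24.1, second in the window, and a −log10 q of 403. The widest, 532 bp at 34429406 to 34429937, had a fold of 16.6 and a −log10 q of 306. The gap from 34438314 to 34453974, with 15659 bases, was the second longest of the window. Of the 16 peaks, 14 had a −log10 q at or above the list's median, against 50.0% of the list.

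H2-Ab1, the class II beta chain gene, carried 2 peaks of similar width and unequal strength. The first, at 34482086 to 34482381, lay across the start of the approximate interval, with 182 of its 296 bases inside. Its fold was 10.0, near the list's median, and its −log10 q was 80.4. The second, at 34483811 to 34484116, was 306 bp wide with a fold of 3.91 and a −log10 q of 13.6. The first thus had 2.56 times the fold and 5.90 times the −log10 q of the second. The first peak's summit lies before the interval's start, so that by summit only the second peak belonged to H2-Ab1.

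The remaining 4284 bases of the H2-Ab1 interval held no peak, and none followed until 34505612. This gap of 21495 bases was the longest of the window, and depth is unknown, so it shows only that no region there entered the list. Compared with the Brd2 and Psmb9-Tap1-Psmb8 peaks, the stronger H2-Ab1 peak had a fold above all 5 of Brd2 and below all 3 of the block. Its −log10 q lay below all 3 of the block and below the 3 wide Brd2 peaks, and was close to the 80.5 of a narrow Brd2 peak.

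Beyond H2-Ab1, in the part that by gene order should hold H2-Aa, 19 peaks had a median width of 173 bp, a median fold of 8.78 (quartiles 6.98 and 13.8) and a median −log10 q of 39.9. After the gap came peaks at 34505612 to 34505806, with a fold of 6.71 and a −log10 q of 15.5, and at 34506801 to 34506956, with a fold of 12.9 and a −log10 q of 83.2. None of the peaks was assigned to H2-Aa, the alpha chain gene. The highest −log10 q of the part, 248, belonged to the peak at 34515059 to 34515398, which had a fold of 19.8. In this part 0 of 19 peaks had a relative −log10 q of at least 4, against 6.74% of the list, and 0 were 500 bp or wider, against 7.35%. Counts this small set nothing apart from the list.

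The edges of the window cut through a populated region. The last peak inside, at 34559872 to 34560247, crossed the edge and had a fold of 20.8 and a −log10 q of 114, the highest fold and the largest width (376 bp) after H2-Ab1. The next peak outside, at 34566641 to 34567166, had a fold of 24.4 and a −log10 q of 381. On the other side, the last peak outside, at 34298664 to 34298817, had a fold of 22.4 and a −log10 q of 183, and the first inside, at 34306000 to 34306170, a fold of 9.20 and a −log10 q of 39.0.

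Most deposited scores are not whole numbers. Each score was multiplied by whole numbers up to 20, and the smallest multiplier that made it whole was recorded. If a score is a mean of whole numbers, which no source states, this multiplier divides the number of values in a plain mean and does not give that number. A plain mean of 1 value from each of 19 samples could not need the multiplier 20, whereas a mean of means could. The multiplier 20 was needed by 18 of the 79 peaks (22.8%), against 14.6% of the list, and by 8 of the 16 peaks between Psmb8 and H2-Ab1. Among the wide Brd2 peaks the multipliers were 4, 20 and 10, and in the Psmb9-Tap1-Psmb8 block 1, 5 and 10. A multiplier that does not divide 20 was needed by 20 of the 79 (25.3%), against 23.6% of the list, and by both narrow Brd2 peaks, with 6 and 7, and the weaker H2-Ab1 peak, with 14. Which samples entered each score is not given in the sources used here.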

How the data were processed

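ATAC-seq was carried out on 19 samples. The submitters' processing notes name build mm39 and, without their roles, MACS2 2.2.7.1, deepTools 3.5.1, STAR 2.7.9a and Picard 2.27.4. Not given in the sources used here are read shifting, the calling threshold and how calls were joined into a consensus. For the whole series, the authors deposited 1 consensus list in narrowPeak layout, with a score, a fold and −log10 p and q values per peak. These values are the authors' own and served only to describe and rank peaks within the list. Coordinates were read as counted from 1, since 0 summit offsets reached the peak width under this reading and 74 under a count from 0.

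A peak belonged to a gene interval if at least 1 base overlapped, and otherwise to the flanking part that held its summit. Scores were called whole within 1e-06 per unit of multiplier. Relative −log10 q used 100 bins of fold of equal size. The steps were checked on simulated data. The peaks named are the strongest by fold, the strongest by −log10 q and the widest of each part, and the 5 highest of the window by fold and by −log10 q. All other peaks were named after their values were seen. The members, the gene lists, the motifs and the 20 kb steps were chosen with earlier results of these data known. No test was run. Python 3.11.15, numpy 2.4.6, pandas 2.3.3 and matplotlib 3.10.9 were used.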

Additional observations from a re-analysis of the deposited data

How the results depend on the processing

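Alternatives were a stricter threshold, merging of touching peaks, placement by summit and gene intervals widened by 5000 bp. The values of the whole window and the comparison of Brd2 with the rest of the window stayed within 1.5 times, or within the 95% order-statistic interval of the median, in 22 of 31 cases. With only the peaks at or above the list's median −log10 q, the window held 46 peaks, or 17.7 per 100 kb, with a median width of 231 bp, a median fold of 12.2 and a median −log10 q of 111, as removal of weak peaks entails. The ratio of Brd2 to the rest of the window was 1.59 for density, 2.92 for median width, 0.485 for median fold and 2.90 for median −log10 q. By summit, the width ratio was 1.91, because 1 wide peak left the interval. With widened intervals, the density ratio was 2.50, and the ratios of width, 0.894, and −log10 q, 0.609, turned over, because narrow peaks around Brd2 entered. The fold ratio stayed below 1 under all 4 alternatives. For single parts, 98 of 112 values stayed within bounds. For medians in Brd2 (5 peaks), the Psmb9-Tap1-Psmb8 block (3) and H2-Ab1 (2), the bounds were the lowest and highest peak instead. A median over some of the same peaks could not leave them, so the count overstates stability there. By summit, the H2-Ab1 median fold went from 6.96 to 3.91 and its −log10 q from 47.0 to 13.6, and both were counted as within. No paired analysis was possible because no value belongs to a single sample. Since depth is unknown, a stretch without peaks may hold weaker accessible regions.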
